A study of Mus musculus with 4 samples.

Results

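GABA-A receptor subunit transcripts were measured in nuclei from mouse hippocampus. The 7 genes Gabra2, Gabra3, Gabra4, Gabra5, Gabrb1, Gabrb2 and Gabrd were chosen by name and make up 7 of the 20211 gene symbols listed in all 4 libraries; 10 further subunit genes are listed there too. Each library came from 1 genotype: wild type, or a total, an astrocyte or a neuron knockout of monoacylglycerol lipase (MAGL, gene Mgll), the enzyme that degrades the endocannabinoid 2-arachidonoylglycerol. All 4 libraries came from hippocampus and were labelled as brain cells. The labels give no age, sex, strain, number of animals, Cre driver or deleted part of Mgll, so strain, animal and genotype cannot be told apart in any comparison of libraries below. With 1 library per genotype there was no test, and all intervals below are 95% intervals that cover counting error only.

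GABA-A receptors are pentameric chloride channels opened by the inhibitory transmitter GABA, and are usually built from α, β and γ or δ subunits. The α subunit helps to set where a receptor sits and how it responds to drugs: receptors with α2 are known at synapses and at the axon initial segment of principal cells, and α5 is abundant in hippocampal pyramidal cells, where many of its receptors lie outside synapses. Receptors that combine α4 with δ lie outside synapses in dentate granule and thalamic neurons, carry tonic inhibition and respond to neurosteroids. The β subunits line part of the GABA binding site and anchor the receptor to its intracellular partners.

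The 7 genes lie on 5 chromosomes of the mm10 (GRCm38) mouse genome in the GENCODE vM21 annotation. Gabra2 (5:70957597-71095849, minus strand), Gabra4 (5:71569749-71658308, minus) and Gabrb1 (5:71658113-72149037, plus) form one chromosome 5 cluster with Gabrg1 (5:70751047-70842617, minus). Gabra4 and Gabrb1 start head to head and overlap by 196 bases. Gabra5 lies at 7:57407672-57510059 (minus), Gabra3 at X:72432681-72656848 (minus), Gabrb2 at 11:42419757-42629028 (plus) and Gabrd at 4:155384980-155398112 (minus). The strand setting of the counting was not stated, so the levels of Gabra4, Gabra5 and Gabrb1 may hold UMIs of an overlapping gene; Gabrb1 also overlaps Gm38562 over 19557 bases, and Gabra3 overlaps 4 small noncoding genes or pseudogenes.

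Of the 7 genes, 6 had at least 1 window in the RefSeq promoter table (GRCm38.p6), 10 windows in all. The 250 bases upstream of 3 starts are printed 5′ to 3′ on the gene's strand for the genes that the results below turn on: Gabra2, which carried most of the library differences, and Gabra3 and Gabra5, which had opposite levels in hippocampal principal and inhibitory nuclei. Capitals mark CpG dinucleotides. The windows lie at chr5:71095850-71096099, chrX:72656920-72657169 and chr7:57510060-57510309, each on the minus strand.
Gabra2: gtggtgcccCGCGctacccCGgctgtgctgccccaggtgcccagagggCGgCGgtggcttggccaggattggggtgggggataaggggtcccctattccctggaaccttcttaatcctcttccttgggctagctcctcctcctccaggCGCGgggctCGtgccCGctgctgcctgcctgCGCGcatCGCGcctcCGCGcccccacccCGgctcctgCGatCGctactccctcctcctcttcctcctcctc
Gabra3: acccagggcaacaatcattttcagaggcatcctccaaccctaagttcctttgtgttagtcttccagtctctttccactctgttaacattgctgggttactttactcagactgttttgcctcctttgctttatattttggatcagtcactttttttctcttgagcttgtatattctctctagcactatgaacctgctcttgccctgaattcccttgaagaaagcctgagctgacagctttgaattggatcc
Gabra5: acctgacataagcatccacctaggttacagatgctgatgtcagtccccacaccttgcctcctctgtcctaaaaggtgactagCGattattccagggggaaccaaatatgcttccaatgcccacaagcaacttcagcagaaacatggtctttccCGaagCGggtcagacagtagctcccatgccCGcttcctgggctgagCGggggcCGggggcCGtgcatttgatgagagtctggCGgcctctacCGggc
The Gabra2 window held 18 CpG at 70.0% GC, and 21.7% of all 32851 promoter windows held as many. The Gabra3 window held no CpG at 42.4% GC, as did 7.87% of windows. Gabra5 was between them, with 9 CpG at 56.4% GC; 40.3% of windows held as many. The median window held 6 CpG at 52.4% GC. GGGCGG, searched on both strands, occurred once in the Gabra2 window (32.7% of all windows held it), and TATAAA, also searched on both strands, once in the Gabra3 window (12.4% of all windows). These are matches of letters and not measured sites.

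The libraries held 8945 to 31243 barcodes and 81623644 to 193307038 UMIs, with median UMIs per barcode of 5456 to 8904. Doublets were called for 1.72% to 5.68% of barcodes, except in the library labelled total knockout, where the call took 23.5%. After filters 51320 of 60288 nuclei were kept, and 39108 fell into 17 classes named from marker genes; 13 classes had at least 20 nuclei in each library and 9 at least 100. Classes are called "-like" because they rest on markers in nuclear RNA, and they included medium spiny-like and thalamic-like neurons, which do not belong to the hippocampus. Pairs of libraries shared 108 to 466 barcode sequences. Nuclei with female RNA made up 46.5% of the wild-type library, 41.8% and 39.6% of those labelled astrocyte and neuron knockout, and 0% of that labelled total knockout. In named neurons Mgll stood at 101 CPM (the gene's UMIs on a per-million scale of all UMIs in the class) in wild type, 84.9 in total, 106 in astrocyte and 103 in neuron knockout; in the astrocyte-like class it was 469, 364, 355 and 554 CPM, from 21 to 119 UMIs. The neuron level in the library labelled neuron knockout was thus not below wild type. UMIs from outside the deleted part check nothing, and that part is not given, so the genotypes are named below as the libraries were labelled.

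Levels are given as CPM summed over the nuclei of a class, in the order wild type, total, astrocyte and neuron knockout. They compare classes for 1 gene and not genes with each other, because nuclear UMI counts depend on gene length. Every order of classes below is among the named classes and leaves out the 12212 nuclei of the 17 unnamed clusters. In summed counts, fewer transcribing nuclei and less RNA per nucleus cannot be told apart.

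**Figure D1:**
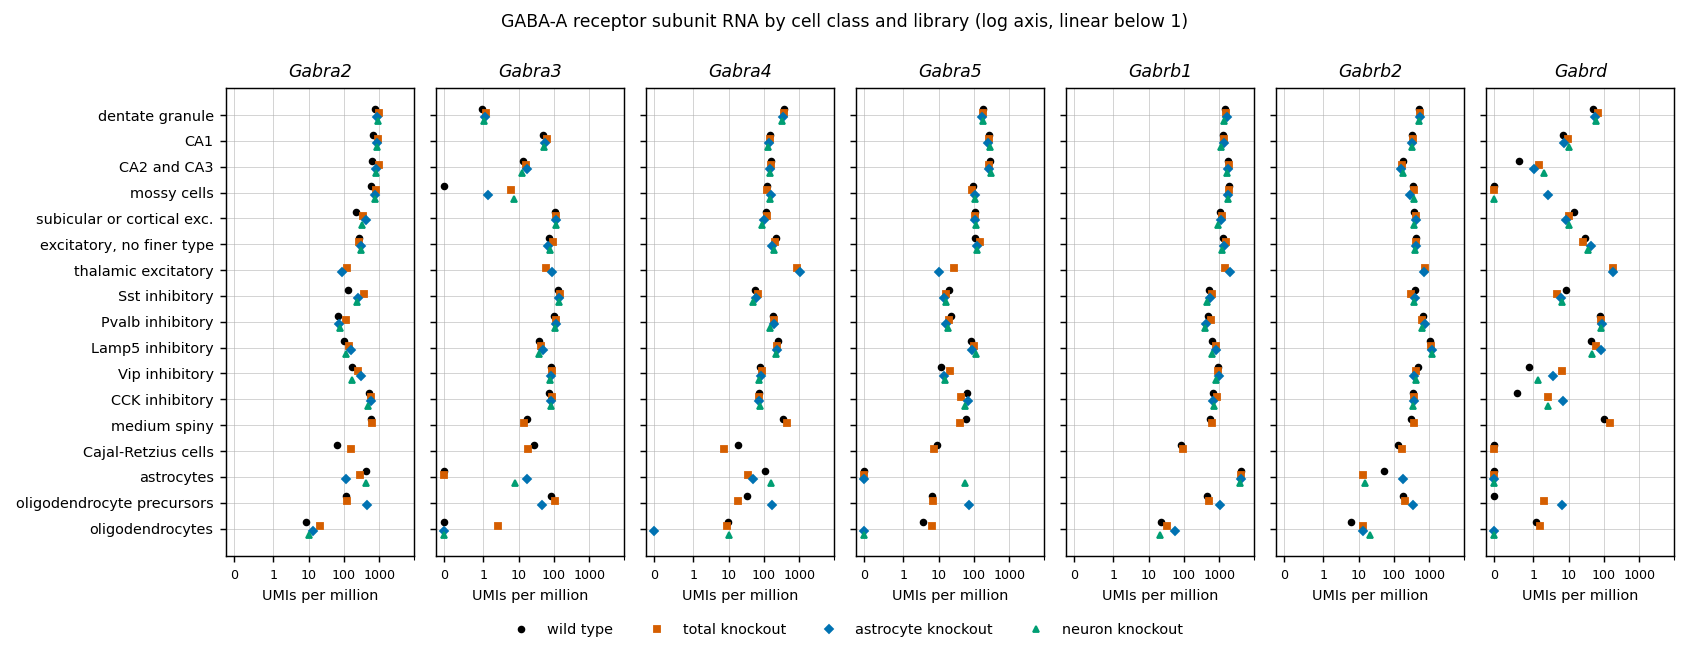
Level of each of the 7 genes (CPM, log axis that is linear below 1) in the named classes; each point is 1 library and the groups are the genotypes as labelled. Gabrb1 sits highest in astrocyte-like nuclei, Gabra3 is near 1 CPM in dentate granule-like nuclei, and Gabrd reaches 186 CPM in thalamic-like nuclei. Gabrd had no UMI in astrocyte-like nuclei, whose 26 to 100 nuclei per library cannot place it against low neuronal levels.

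Gabra2 encodes the α2 subunit. Its level was 741, 1014, 860 and 953 CPM in dentate granule-like nuclei, 675, 956, 847 and 853 in CA1-like nuclei and 637, 972, 791 and 835 in nuclei of the class CA2 and CA3. Mossy-like nuclei of the hilus had 598, 823, 747 and 768 CPM. These 4 hippocampal excitatory classes overlapped with their neighbours in the order of levels. Unnamed clusters of 799 nuclei and of 189 nuclei (2 libraries with at least 20) had medians of 1182 and 1211 CPM, against 906 in granule-like nuclei. Within the inhibitory classes the gene was unevenly spread: 506, 573, 589 and 482 CPM in CCK-like nuclei, but 70.2, 116, 71.6 and 78.2 in Pvalb-like nuclei, a gap that held in each library. Sst-like nuclei (135, 371, 258 and 235), Vip-like nuclei (166, 247, 311 and 166) and Lamp5-like nuclei (103, 138, 155 and 113) were between them. Outside neurons, astrocyte-like nuclei had 414, 282, 118 and 421 CPM, and oligodendrocyte-like nuclei 8.59 to 20.8. The median of the top class was 75.3 times that of the lowest, and 12 of 16 neighbouring pairs of classes overlapped.

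Gabra3, the X-linked α3 gene, had another order. Among named classes Sst-like nuclei were at the top with 135, 146, 138 and 141 CPM, and their range stood clear of the next named class. An unnamed cluster of 799 nuclei had 115 to 192 CPM, with a median of 160. Subicular- or cortical-like excitatory nuclei had 105, 117, 115 and 114 CPM and Pvalb-like nuclei 99.9, 112, 114 and 107, which overlapped. In the hippocampal principal classes the level was lower from class to class, from 50.2, 62.1, 57.3 and 51.0 CPM in CA1-like nuclei to 13.2, 16.5, 17.6 and 12.7 in the class CA2 and CA3 and 0.957, 1.16, 1.12 and 1.03 in dentate granule-like nuclei. Of oligodendrocyte precursor-like nuclei, 3 libraries with at least 20 nuclei gave 83.2 (wild type), 106 (total) and 44.9 CPM (astrocyte, 7 UMIs). Mossy-like nuclei ranged from 0 to 7.18 CPM.

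Gabra4 encodes α4, the partner of δ in extrasynaptic receptors of the forebrain. Thalamic-like nuclei, present in numbers in only 2 libraries, had 862 CPM (total) and 1027 CPM (astrocyte). Medium spiny-like nuclei had 358 CPM in wild type and 455 in total knockout, and dentate granule-like nuclei 375, 369, 343 and 322. Granule-like nuclei stood clear of the next class, Lamp5-like nuclei, at 249, 243, 236 and 226 CPM. CA1-like nuclei had 154, 148, 137 and 128 CPM and the class CA2 and CA3 had 156, 159, 153 and 148, which overlapped. The lowest neuronal levels among the inhibitory classes were in Sst-like nuclei, at 57.1, 69.5, 58.9 and 48.5 CPM.

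Gabrd encodes δ. It followed part of the Gabra4 order: thalamic-like nuclei were highest (186 CPM in total and 183 in astrocyte knockout), then medium spiny-like nuclei (99.3 in wild type and 147 in total knockout). Pvalb-like nuclei came next with 77.1, 81.9, 89.9 and 84.2 CPM. Dentate granule-like nuclei had 48.1, 66.0, 55.6 and 59.5 CPM and overlapped with Lamp5-like nuclei at 43.5, 58.4, 84.9 and 47.3. CA1-like nuclei had 7.12, 9.91, 7.45 and 10.4 CPM, and the class CA2 and CA3 only 0.646, 1.45, 1.02 and 2.03. Astrocyte-like nuclei had no Gabrd UMI in any library, from 26 to 100 nuclei each. In the library labelled astrocyte knockout, with 26 such nuclei, 21 Mgll UMIs stood for 355 CPM. The absence of UMIs therefore cannot place Gabrd in this class below CA1-like nuclei or the class CA2 and CA3.

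Because depth differed between libraries, the share of nuclei with a Gabrd UMI was also taken after thinning each nucleus to 1000 UMIs. In dentate granule-like nuclei it was 4.56%, 7.33%, 5.33% and 6.17% (29.6%, 24.8%, 28.7% and 32.1% with all UMIs), with Clopper-Pearson intervals of 3.68% to 5.58% in wild type and 6.57% to 8.15% in total knockout. The thinned order put wild type lowest, whereas with all UMIs the library labelled total knockout was lowest. Oligodendrocyte-like nuclei, which should lack the gene, gave 2 of 992 nuclei in total knockout (0.202%) and 0 of 339, 0 of 31 and 0 of 44 in the others, which allow shares of up to 0.885%, 9.68% and 6.82% by the limit of 3 counts (Clopper-Pearson upper bounds 1.08%, 11.2% and 8.04%). The class CA2 and CA3 had 0.177%, 0.170%, 0.0955% and 0.156%. In total knockout that was below the 0.202% of oligodendrocyte-like nuclei. In the other libraries it lay under the limits above, which rest on 0 nuclei with a UMI and cannot place it against the background. Median depth before thinning was 4378 to 7966 UMIs in granule-like nuclei and 1211 to 2016 in oligodendrocyte-like nuclei.

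Gabra5 encodes α5, the subunit for which hippocampal pyramidal cells are best known. The class CA2 and CA3 (281, 275, 274 and 297 CPM) and CA1-like nuclei (265, 262, 258 and 281) were highest and overlapped. Dentate granule-like nuclei followed at 180, 183, 171 and 184 CPM, clear of both neighbours. Subicular- or cortical-like nuclei had 107, 111, 104 and 113 CPM. Inhibitory nuclei split into those with 43.6 to 117 CPM (Lamp5-like and CCK-like) and those with 11.4 to 21.9 CPM (Pvalb-like, Sst-like and Vip-like). Astrocyte-like nuclei had no Gabra5 UMI in 3 libraries and 7 UMIs in the library labelled neuron knockout.

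Gabrb1 encodes β1. It was highest in astrocyte-like nuclei, with 4156, 4125, 4108 and 3816 CPM from 100, 97, 26 and 52 nuclei, a range clear of every neuronal class. Among neurons it was 1866, 1892, 1759 and 1746 CPM in mossy-like nuclei, 1764, 1879, 1810 and 1618 in the class CA2 and CA3, 1439, 1528, 1676 and 1388 in granule-like nuclei and 1306, 1365, 1331 and 1140 in CA1-like nuclei. The first 3 of these ranges overlapped from one to the next, and every granule-like value lay above every CA1-like value. These are values of pooled classes. The class CA2 and CA3 mixes a cluster of 2343 nuclei at 1488 to 1669 CPM with 2 above the mossy-like range. Those had 1974 to 2395 CPM (683 nuclei) and 1895 to 2689 CPM (403 nuclei). A CA1-like cluster of 1949 nuclei had 1264 to 1534 CPM, which overlapped with granule-like nuclei. Pvalb-like nuclei were lowest among the inhibitory classes, at 482, 570, 428 and 397 CPM, and oligodendrocyte-like nuclei had 20.9 to 54.4.

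Gabrb2, the β2 gene, was highest in Lamp5-like nuclei, with 1070, 1115, 1230 and 1199 CPM. Thalamic-like nuclei had 747 CPM (total) and 709 (astrocyte), which overlapped with Pvalb-like nuclei at 667, 609, 762 and 634. Among hippocampal principal classes the order differed from that of Gabrb1: granule-like nuclei had 518, 551, 560 and 530 CPM, CA1-like nuclei 336, 351, 319 and 328 and the class CA2 and CA3 179, 175, 164 and 178. None of these 3 ranges overlapped.

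Classes were then compared within each library, and a gene was called where its CPM differed at least 2-fold in the same direction in each of the 4 libraries. Classes were clustered without the subunit genes, but on RNA of the same nuclei, so the differences are descriptions. Dentate granule-like against CA1-like nuclei called 3 of the 7 genes. Gabra4 was higher by 1.29, 1.32, 1.33 and 1.33 on the log2 scale and Gabrd by 2.76, 2.74, 2.90 and 2.51, while Gabra3 was lower, at -5.72, -5.74, -5.68 and -5.63. Of all 14758 genes compared there, 7.72% were higher and 6.70% lower by the same call. The 2 partner genes of extrasynaptic receptors were thus both above CA1 in granule-like nuclei of each library, beside a gene that was nearly absent.

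The class CA2 and CA3 against CA1-like nuclei called 2 genes lower and none higher. Gabra3 was lower at -1.92, -1.92, -1.71 and -2.0 and Gabrd at -3.46, -2.77, -2.87 and -2.36, where 4.99% of all genes were higher and 4.15% lower. The Gabrd values rest on 6, 16, 13 and 19 UMIs in the class CA2 and CA3. Gabrb2 lay at -0.91, -1.0, -0.96 and -0.88 and was not called. With nuclei gated on markers in place of clusters, neither was called.

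The 5 inhibitory classes together against the 3 hippocampal excitatory classes together called 4 of the 7 genes. Gabra3 was higher by 2.33, 2.20, 2.00 and 2.28, while Gabra2 (-1.94, -1.7, -1.61 and -1.85), Gabra5 (-2.90, -3.04, -2.89 and -2.97) and Gabrb1 (-1.33, -1.15, -1.43 and -1.36) were lower. The shares over all genes were 10.0% higher and 8.56% lower. Gabra4, Gabrb2 and Gabrd passed in neither direction. Single classes did not all follow the pooled values. Gabra3 in Lamp5-like nuclei (38.9, 42.4, 49.7 and 39.1 CPM) lay below CA1-like nuclei but above granule-like nuclei and the class CA2 and CA3. The CA1-like class mixes a cluster of 4502 nuclei at 34.4 to 40.8 CPM with another of 1949 nuclei at 81.3 to 97.2 CPM. Gabra2 in CCK-like nuclei was within 2-fold of the principal classes in each library.

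**Figure D2:**
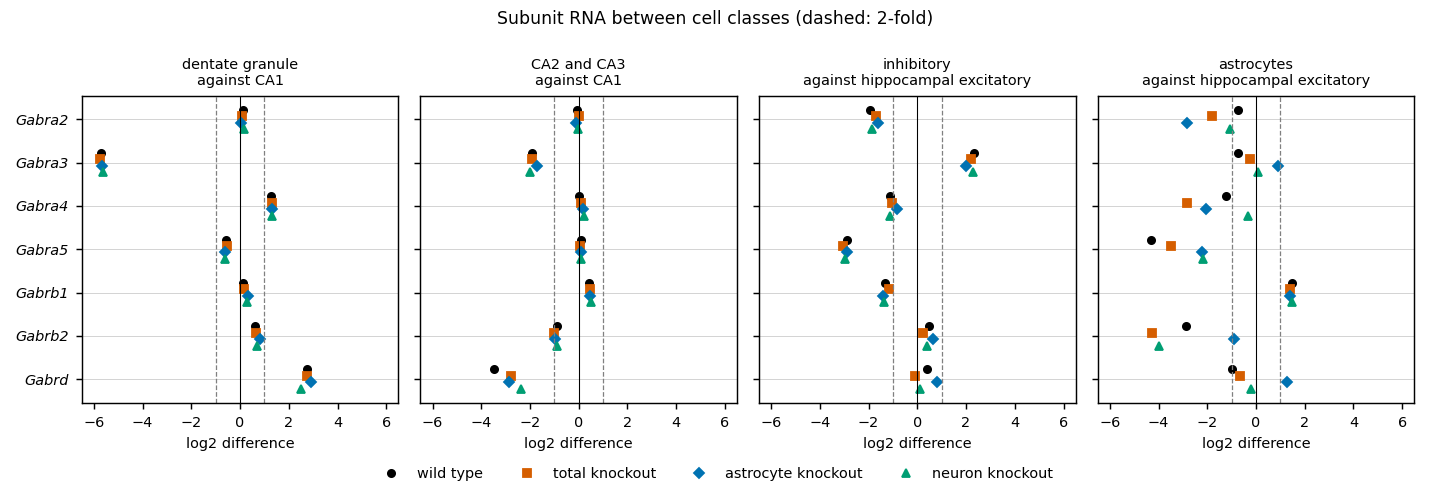
Log2 difference of CPM between classes for each of the 7 genes, with 1 point per library and the 2-fold bounds as lines; a side under 3 counts is drawn at 3 counts, which sets most astrocyte-like points of Gabra3, Gabra5 and Gabrd. Gabra3 lies below the bound for granule-like against CA1-like nuclei (near -5.7) and above it for inhibitory against hippocampal excitatory nuclei (2.00 to 2.33), and Gabrd is on opposite sides for granule-like (2.51 to 2.90) and CA2 and CA3 nuclei (-3.46 to -2.36).

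Astrocyte-like nuclei against the 3 excitatory classes gave 1 gene higher, Gabrb1 (1.5, 1.40, 1.38 and 1.49), and 1 lower, Gabra5 (-4.29, -3.48, -2.21 and -2.19), where 8.54% of all genes were higher and 3.64% lower. The median of all genes in this comparison was itself 1.28, against -0.01 to 0.12 in the other 3. By library that median was 0.82, 1.26, 2.10 and 1.35. Centred on the median of each library, no member was higher and 5 were lower. Setting counts under 3 to 3 raises genes with few counts in this small class. Gad2, at that limit in each of the 4 libraries, stood at 3.62 to 5.54. How far the limit sets the median was not tested. The centred calls are therefore not read as a result about the members. Gabra5 was at the limit of 3 counts in 3 of the 4 libraries. Astrocyte markers summed to 6423 to 8549 CPM in this class and excitatory-neuron markers to 205, 34.4, 254 and 46.8 CPM; the part of neuronal RNA in its values was not tested.

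Each library labelled as a knockout was compared with wild type within the 9 classes of at least 100 nuclei. Of 63 pairs of gene and class, 57 had at least 100 UMIs over the libraries, and a pair was called past 1.5-fold. The calls in the higher direction were all of Gabra2: 4 in total, 3 in astrocyte and 2 in neuron knockout. Over all 97914 pairs of gene and class the shares that were higher past 1.5-fold were 2.01%, 2.46% and 2.63%, and 5.60%, 5.24% and 5.15% were lower. A single member pair was lower, Gabrd in subicular- or cortical-like nuclei of the library labelled astrocyte knockout. Since the higher calls were of 1 gene, nothing is read from their number about the members as a group. With called doublets kept, the library labelled total knockout had 11 higher pairs, of which 4 were Gabra2 and 3 Gabrd. The share of all genes with doublets kept is not given. The median log2 ratio over the 57 pairs was 0.11, 0.05 and -0.01, and the median of all genes lay between -0.07 and 0.01 in these classes. The 3 comparisons share the wild-type library, so a value that is low there moves all of them.

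Gabra2 differed most in Sst-like nuclei, the dendrite-targeting interneurons. There its 135 CPM in wild type (425 UMIs) compared with 371 in total (1995 UMIs), 258 in astrocyte (771) and 235 in neuron knockout (973). The log2 ratios were 1.46 (1.31 to 1.61), 0.93 (0.76 to 1.11) and 0.80 (0.63 to 0.97). Of all genes, 7.65%, 9.11% and 8.33% passed 1.5-fold in either direction. Of the 10356 genes, 197, 246 and 261 were higher and 595, 697 and 602 lower. The shares of all genes given by class below also count both directions. All 3 libraries labelled knockouts were above wild type, and the total knockout was above the other 2.

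Subicular- or cortical-like nuclei had 218, 352, 416 and 329 CPM of Gabra2. Their log2 ratios were 0.69 (0.62 to 0.77), 0.93 (0.85 to 1.01) and 0.59 (0.51 to 0.67), where 7.18%, 7.93% and 6.98% of all genes passed 1.5-fold. This class mixes cell types, and its clusters did not move alike. In 1 of its 3 clusters with at least 100 nuclei per library the ratios were -0.26, -0.15 and -0.37, and in the others 0.61, 0.67 and 0.46, and 0.48, 0.38 and 0.47. In each of the 3 libraries the class value therefore exceeded that of each of these clusters, and in neuron knockout none of the 3 clusters passed 1.5-fold.

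In the 3 hippocampal principal classes the Gabra2 ratios were smaller and of 1 direction. Granule-like nuclei gave 0.45 (0.42 to 0.49), 0.22 (0.18 to 0.25) and 0.36 (0.33 to 0.40), none past 1.5-fold, where 7.38%, 7.18% and 6.58% of all genes were. CA1-like nuclei gave 0.50, 0.33 and 0.34 (7.93%, 5.18% and 6.72% of all genes past 1.5-fold). The class CA2 and CA3 gave 0.61 (0.56 to 0.66), which was called, then 0.31 and 0.39 (7.59%, 4.32% and 7.16%). In each of these 3 classes the 3 libraries labelled knockouts lay above wild type, and the intervals of wild type did not overlap theirs.

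Other inhibitory classes were less even. Gabra2 in Pvalb-like nuclei was called in total knockout (0.72, 0.50 to 0.95) but lay at 0.03 and 0.15 in the others (6.95%, 8.43% and 8.13% of all genes past 1.5-fold). In Vip-like nuclei it was 0.57, 0.91 (0.60 to 1.21, called) and 0.01, from 122 to 519 UMIs (6.48%, 13.7% and 12.3%). CCK-like nuclei gave 0.18, 0.22 and -0.07 (9.94%, 9.38% and 9.68%). Excitatory nuclei of no finer type gave 0.03, 0.16 and 0.21 (7.34%, 8.03% and 7.18%). The latter class pools clusters with Gabra2 medians of 137, 512 and 286 CPM. The first of these held 286 of 784 nuclei in wild type, 741 of 1356 in total, 170 of 480 in astrocyte and 259 of 561 in neuron knockout. In the largest cluster alone Gabra2 passed 1.5-fold in neuron knockout. The part of the mix was not tested. By class, the wild-type library was the lowest of the 4 in 8 of the 9 classes, the exception being CCK-like nuclei. Of 5932 genes measured in all 9 classes, 133 (2.24%) were lowest in wild type in at least 8, the count that Gabra2 had. In the other direction, 449 (7.57%) were highest in wild type in at least 8. Gabra2 was the only member among the 133, but Gabra3, Gabra5 and Gabrd were not measured in all 9 classes.

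**Figure D3:**
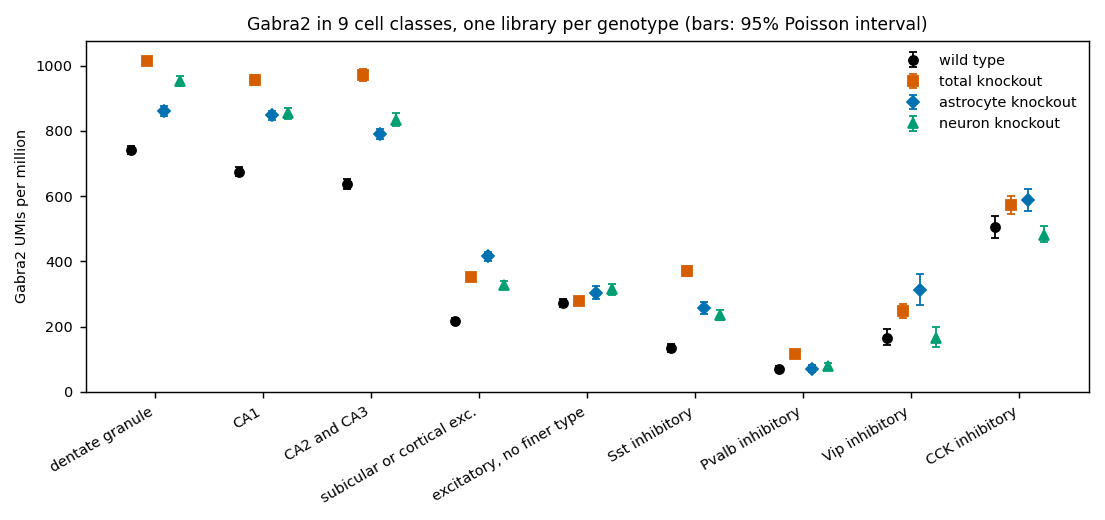
Gabra2 level (CPM) in each class with at least 100 nuclei per library, with exact Poisson intervals for counting error; groups are the libraries as labelled. Wild type is the lowest of the 4 libraries in all classes shown except CCK-like nuclei, and Sst-like nuclei have 135 CPM in wild type against 235 to 371 in the others.

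The Gabra2 pattern was followed across finer groups, depth and sex. Over 23 clusters with at least 100 nuclei in each library the ratio was above 0 in 21 (total), 20 (astrocyte) and 20 (neuron), and past 1.5-fold in 8, 5 and 3. The share of all genes past 1.5-fold is not given by cluster, so nothing is read from cluster calls, here or below. After thinning to 1000 UMIs, wild type was lowest in 5 of 9 classes: granule-like, CA1-like, CA2 and CA3, Sst-like and subicular- or cortical-like nuclei. Among male nuclei alone, the ratios in Sst-like nuclei were 1.49, 0.74 and 0.68. Gabra2 in Sst-like nuclei was past 1.5-fold in all 3 libraries with doublets kept, after thinning and in male nuclei (the class is a single cluster), but with nuclei gated on markers it was not in the library labelled neuron knockout. Female nuclei alone gave 1.00 and 1.01 in the libraries labelled astrocyte and neuron knockout. Over the 9 classes, some with fewer than 100 female nuclei, female nuclei put Gabra2 above wild type in 9 in astrocyte and in 6 in neuron knockout. The difference in Sst-like nuclei thus had the same direction in both sexes wherever both were present.

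Gabrg1, a γ gene that is no member but neighbours Gabra2 on chromosome 5, was also low in wild-type Sst-like nuclei, at 9.20 CPM against 60.0, 54.6 and 45.3 (log2 ratios 2.66, 2.53 and 2.26). Of Gabra4 and Gabrb1, the other members in that chromosome 5 cluster, neither was called in any named class when all kept nuclei were used.

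Gabra4 and Gabrb1 had small ratios that leaned one way in the library labelled neuron knockout when all nuclei were used. Gabra4 was below 0 in 8 of 9 classes there, with the interval below 0 in 5 and a median of -0.22, and granule-like nuclei went from 375 CPM in wild type to 322. Gabrb1 had its interval below 0 in 8 of 9 classes, with a median of -0.16; CA1-like nuclei had 1306 CPM in wild type and 1140 in neuron knockout. In total knockout Gabrb1 leaned the other way, with its interval above 0 in 8 of 9 classes and a median of 0.15. In female nuclei alone the lean of the neuron knockout was not seen for Gabra4 and was smaller for Gabrb1. There Gabra4 was above 0 in 5 of 8 classes, with 0.22 (0.09 to 0.36) in CA1-like nuclei, while Gabrb1 was below 0 in 6 of 9 classes and above in 3, with its interval below 0 in 2, above 0 in 2 and a median of -0.02. By class, with all nuclei and in female nuclei, all of these were within 1.5-fold. Among male nuclei alone, Gabra4 in neuron knockout was lower past 1.5-fold in CA1-like and Pvalb-like nuclei. By class, Gabra3, Gabra5 and Gabrb2 had no call with all nuclei. Their ratios ranged from -0.09 to 0.44, from -0.52 to 0.56 and from -0.37 to 0.19. Single clusters did give calls, in the order total, astrocyte and neuron knockout. Gabra3 was higher in 1, 1 and 0 of 20 clusters and lower in 0, 1 and 0. Of 22 clusters, Gabra5 was higher in 1, 2 and 1 and lower in none. Gabra4 was lower in 0, 1 and 1 of 23 and higher in none. Gabrb1 and Gabrb2 had no call by cluster.

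Gabrd had opposite signs in different classes. In granule-like nuclei its ratios were 0.46 (0.33 to 0.58), 0.21 (0.07 to 0.35) and 0.31 (0.16 to 0.45), from 797 to 1361 UMIs. In subicular- or cortical-like nuclei it had 14.5, 10.3, 8.39 and 10.4 CPM, with ratios of -0.49, -0.78 (-1.21 to -0.37) and -0.47 from 77 to 158 UMIs. With all nuclei, the 3 libraries labelled knockouts were above wild type in the first class and below it in the second. In female granule-like nuclei alone the ratio was -0.14 (-0.36 to 0.08) in astrocyte and 0.14 (-0.08 to 0.36) in neuron knockout, both with intervals that included 0. In the 3 clusters of the second class with at least 100 nuclei per library, the astrocyte knockout gave -0.72, -0.50 and -0.76, each with an interval that included 0. Over all 15 clusters tested, Gabrd was higher past 1.5-fold in 1 (total), 1 (astrocyte) and 2 (neuron). It was lower in 1, 2 and 1. In the second class female nuclei alone gave -0.40 (-1.12 to 0.27) in astrocyte and -0.24 (-0.94 to 0.42) in neuron knockout. Among male nuclei alone, Gabrd passed 1.5-fold below wild type in the second class in each library labelled as a knockout. In male granule-like nuclei it passed 1.5-fold above wild type in total knockout only. Female nuclei of other classes passed 1.5-fold in the higher direction. These were CA1-like nuclei in neuron knockout (0.76, 0.20 to 1.35) and excitatory nuclei of no finer type. The latter gave 0.98 (0.25 to 1.59) in astrocyte knockout, from 26 UMIs in 85 nuclei, and 0.89 (0.46 to 1.32) in neuron knockout. That excitatory class pools clusters with Gabrd medians of 7.80, 55.8 and 46.4 CPM. The part of their mix was not tested.

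**Figure D4:**
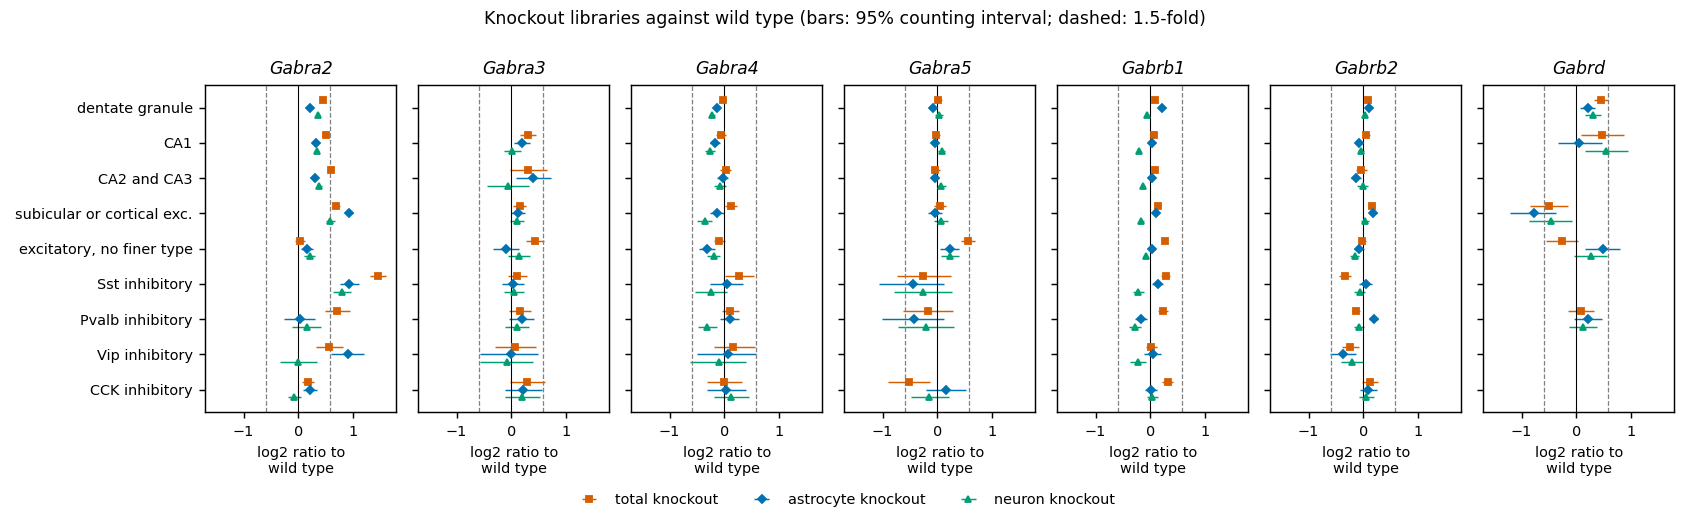
Log2 ratio to the wild-type library for each of the 7 genes in the classes of at least 100 nuclei, by library as labelled, with the 1.5-fold bounds. The points past the upper bound are Gabra2, up to 1.46 in Sst-like nuclei of the total knockout, and the point past the lower bound is Gabrd at -0.78.

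Since Gabra3 is X-linked, female and male nuclei of all named neurons were compared within the 3 libraries that held both. This pool mixes classes that differ in their share of female nuclei. In astrocyte knockout 85 of 480 excitatory nuclei of no finer type were called female, against 943 of 1954 CA1-like nuclei. The values below are of the pool and do not describe single classes. The female level was 52.0 CPM and the male 46.7 in wild type, 53.8 and 52.9 in astrocyte knockout and 59.2 and 56.6 in neuron knockout. The log2 ratios were 0.15 (0.05 to 0.26), 0.02 (-0.08 to 0.13) and 0.07 (-0.04 to 0.17). After thinning to 1000 UMIs the direction turned in the libraries labelled astrocyte (-0.11) and neuron knockout (-0.26). Over all named neurons together none of the 7 genes passed 1.5-fold, as did 1.37%, 1.15% and 1.13% of all genes. The highest female to male ratios were in the library labelled neuron knockout and were of 3 autosomal genes, Gabra4 at 0.33 (0.27 to 0.39), Gabra2 at 0.30 (0.27 to 0.33) and Gabrb1 at 0.23 (0.20 to 0.25), all on chromosome 5. In astrocyte knockout the same 3 genes were at 0.05, 0.17 and 0.07, and in wild type at -0.20, -0.03 and -0.04. Gabra5 and Gabrb2 in neuron knockout were at 0.02 and 0.05.

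**Figure D5:**
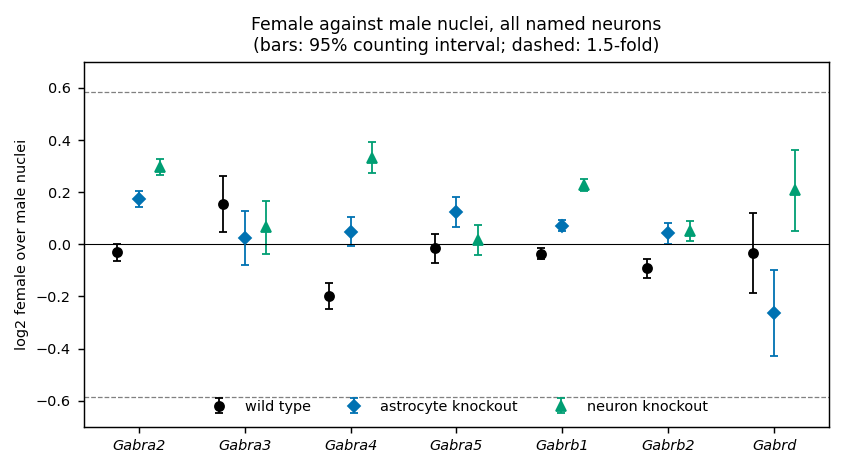
Log2 ratio of female to male nuclei of all named neurons for each of the 7 genes in the 3 libraries that held both sexes, with counting-error intervals. Gabra2, Gabra4 and Gabrb1 lie at 0.23 to 0.33 in the library labelled neuron knockout, and no gene passes 1.5-fold in this pool. Single classes are not drawn.

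The other genes of the pathway were counted from fixed lists. Of the 10 other subunit genes, 5 had enough UMIs, giving 43 pairs of gene and class; 2, 2 and 4 were higher and none lower in total, astrocyte and neuron knockout. The higher calls were of Gabrg1 except 1, of Gabrg3 in Vip-like nuclei. Between classes, Gabrg1 and Gabrg3, which encode γ subunits, were higher in inhibitory than in hippocampal excitatory nuclei. Of 14 genes for scaffold and trafficking (125 pairs), 0, 2 and 2 pairs were higher and 1, 4 and 5 lower; Gabarap, named for binding the receptor, was lower in CCK-like nuclei of each library labelled as a knockout. From the 9 genes for GABA synthesis, transport and chloride (65 pairs), 1, 2 and 1 pairs were higher and 1 was lower in each library. The lower pair was Slc6a11, a GABA transporter, in CCK-like nuclei at -0.83, -0.69 and -1.0; the same gene was higher in excitatory nuclei of no finer type in astrocyte knockout (0.62). Neither GABA-B receptor gene was called in a library ratio. In the classes compared, 4.32% to 13.7% of all genes passed 1.5-fold in either direction, and the shares in each direction over all pairs are those given above; nothing particular to the lists is read from their counts.

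Between classes, the synthesis and transport genes higher in inhibitory nuclei included Gad1 and Gad2, which make GABA, Slc32a1, which loads it into vesicles, and Abat, which breaks it down. The first 3 were among the markers used to name inhibitory classes. Plcl1, whose product binds GABA-A receptors, was the scaffold and trafficking gene called higher in granule-like and in CA2 and CA3 nuclei than in CA1-like nuclei. It was lower in inhibitory nuclei. Igsf9b of the same list was lower in granule-like (median log2 difference -3.47) and in CA2 and CA3 nuclei (-2.21) than in CA1-like nuclei, and Shisa7 was lower in CA2 and CA3 nuclei (-1.10).

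Across the 17 classes, the genes most like each member were named by Pearson's r of log2(CPM + 1) among 9963 genes, as a description over classes that share libraries. Shfl (r = 0.94) was 1 of the 2 genes most like Gabrb2. For Gabra2 they were Chst1 (0.91) and Gria2 (0.90), an AMPA receptor gene, and for Gabra3 Fkbp2 (0.91) and Cdc14b (0.88). Gabra4 was most like Rnft1 (0.90) and Fndc9 (0.89), Gabra5 like Trmt6 (0.91) and Ak5 (0.91), Gabrb1 like Nrcam (0.92) and Mettl24 (0.89), and Gabrd like Il1rapl1 (0.84) and Rnf207 (0.84). Between members the highest were Gabra2 with Gabra5 (0.80) and Gabra4 with Gabrd (0.78).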

How the data were processed

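Single-nucleus RNA was captured in 4 hippocampal libraries, and the deposited values are raw UMI counts per gene and nucleus, made by the authors with Cell Ranger ARC 2.0.0 on mm10, per the submitters' processing notes. Nuclei with at least 500 genes and at most 5% mitochondrial UMIs were kept. Each library was scored against simulated doublets, with 0.8% expected for every 1000 barcodes, and called nuclei were removed. Nuclei were clustered with scanpy 1.11.5 (2000 variable genes, 30 components, 15 neighbours, Leiden resolution 1; leidenalg 0.10.2), leaving the subunit genes out. A cluster was named from markers where at least 3 of its class passed 2-fold and 10% of nuclei. For the general excitatory and inhibitory lists, a level at least that of the other nuclei was enough in place of 2-fold. The number of Leiden iterations and how the general excitatory and inhibitory lists count were revised after clusters were seen. Of 46 clusters, 17 stayed unnamed. Marker-gated nuclei served as an alternative.

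Counts were summed per library and class (at least 20 nuclei for a level, 100 for a ratio) and scaled to CPM. Ratios to wild type used counts plus 1 and genes with at least 100 UMIs. Between classes, a side with fewer than 3 counts was set to 3. No test was possible with 1 library per genotype, and nuclei are not replicates. The members and lists were chosen with earlier results of these data known. Named genes are the 7 members, ratios past 1.5-fold, the 2 genes most like each member, and called genes of the lists. Some of these genes are not reported here. Nuclei were called female from 2 Xist UMIs and male from 1 Y-linked UMI. Both tables were tested on simulated counts. Alternatives were kept doublets, the marker gate, thinning to 1000 UMIs, male nuclei only, the largest cluster only, at least 1000 genes, other minimums and folds, centring and leaving out libraries; a finer cluster in place of a class and female nuclei only were added after seeing the data.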

Additional observations from a re-analysis of the deposited data

Results flagged for a closer look

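Gabrd was singled out because the 3 libraries labelled knockouts lay above wild type in dentate granule-like nuclei and below it in subicular- or cortical-like nuclei, with counting intervals clear of 0 in each. The medians of the 3 log2 ratios in the classes differed by 0.80. Within clusters of the latter class the library labelled astrocyte knockout gave -0.72, -0.50 and -0.76, close to -0.78 for the class, at fewer UMIs and with no interval clear of 0. In female nuclei the latter class gave -0.40 (-1.12 to 0.27) in astrocyte and -0.24 (-0.94 to 0.42) in neuron knockout, and granule-like nuclei -0.14 (-0.36 to 0.08) and 0.14 (-0.08 to 0.36), each with an interval that included 0. Wild-type granule-like nuclei held more Gabrd in female than in male nuclei (log2 ratio 0.32, 0.11 to 0.54). The library labelled total knockout had no female nuclei. Among male nuclei alone, Gabrd passed 1.5-fold above wild type in granule-like nuclei of total knockout. It passed 1.5-fold below wild type in male subicular- or cortical-like nuclei of each library labelled as a knockout. The part of sex was not tested further. The difference was not tested, since each genotype had 1 library.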

How the results depend on the processing

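No paired analysis was possible because each genotype had 1 library; class and sex comparisons were made within each library instead. Higher calls past 1.5-fold numbered 4 in total, 3 in astrocyte and 2 in neuron knockout, and lower calls 0, 1 and 0, where 2.01% to 2.63% of all pairs of gene and class were higher and 5.15% to 5.60% lower. These shares are of the main setting. For the other settings the share of all genes is not given, so nothing about the members is read from the counts that follow. In total knockout the higher calls became 11 with doublets kept, 7 in male nuclei, 7 with a minimum of 20 UMIs and 12 at a lower fold threshold. The lower calls there became 2 in male nuclei, 1 with a minimum of 20 UMIs and 3 at a lower fold. With marker-gated nuclei the higher calls in total knockout were Gabra2 in 4 classes and Gabra3 in 2. When centred they were Gabra2 in 5 classes. For astrocyte knockout the higher calls became 5 with doublets kept, 6 with marker-gated nuclei and 6 at a lower fold, and the lower calls 3 after thinning, 2 in male nuclei, 2 in the largest cluster and 4 at a lower fold. In neuron knockout the higher calls became 1 with marker-gated nuclei, 4 in male nuclei, 4 with a minimum of 20 UMIs and 6 at a lower fold, and the lower calls 1 with doublets kept, 1 after thinning, 3 in male nuclei and 2 at a lower fold. Female nuclei alone gave 4 higher calls in astrocyte and 5 in neuron knockout, of which 1 and 2 were Gabrd and the others Gabra2, and 0 lower calls in each.

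Of the class comparisons, the 2 lower members of CA2 and CA3 against CA1 became 1 with doublets kept, 0 with marker-gated nuclei and 1 after thinning. In astrocyte-like nuclei the 1 higher member became 0 with marker-gated nuclei and 0 when centred, and the 1 lower member became 2 with doublets kept, 0 in male nuclei, 5 when centred, 3 at a fold of 1.5 and 1 to 2 on leaving out each library in turn (2 without wild type, astrocyte or neuron knockout). The Gabra3 female to male ratio became -0.11 in astrocyte and -0.26 in neuron knockout after thinning. Granule-like nuclei with a Gabrd UMI became 29.6%, 24.8%, 28.7% and 32.1% with all UMIs. Centring aside, no called value changed sign under the alternatives that keep classes. In astrocyte-like nuclei of the library labelled astrocyte knockout, Gabrb1 (1.38) lay below the median of all genes (2.10). Its value there thus turned negative when centred. By cluster, Gabra2 in subicular- or cortical-like nuclei turned from 0.69, 0.93 and 0.59 to -0.26, -0.15 and -0.37 in 1 of 3 clusters. Of values for single genes, 59 ratios, 98 class differences and 77 levels stayed within counting error or spread, and 21, 34 and 42 moved. The cause of these moves was not tested. Counts limit Gabrd, and the astrocyte-like class had 26 to 100 nuclei a library.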

Other observations

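With doublets kept, Gabra3 in dentate granule-like nuclei passed 1.5-fold in the library labelled total knockout, and with marker-gated nuclei it did so in total and astrocyte knockout, whereas the clusters gave 0.957, 1.16, 1.12 and 1.03 CPM. In the oligodendrocyte precursor-like class of 294 (wild type), 662 (total) and 30 (astrocyte knockout) nuclei, Gabra2 stood at 116, 120 and 443 CPM, the last from 69 UMIs. Excitatory-neuron markers summed to 34.2, 23.1 and 494 CPM there, with 4, 5 and 4 of the 5 detected, and the class's own markers to 10578, 11067 and 5155 CPM; their part in the Gabra2 value was not tested. The same library gave 44.9 CPM of Gabra3 from 7 UMIs, against 83.2 and 106 in the others.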
